A study of Homo sapiens with 3 samples.

Results

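The genes of polyamine synthesis and breakdown were examined on Affymetrix arrays of LNCaP cells, a human prostate cancer line that carries the androgen receptor. They are ODC1, AMD1, SRM, SMS, SAT1, SMOX, AZIN1, OAZ1, OAZ2 and MTAP, taken as every probe set annotated to a single gene symbol on this list. The 10 genes, of 18131 with such a probe set, had 35 probe sets of the 49388 in the deposited table. The series asked which genes differ from control after knockdown of HOXD-AS1, a long non-coding RNA of the HOXD locus. There were 3 groups, LNCaP with HOXD-AS1 siRNA 1, LNCaP with HOXD-AS1 siRNA 2 and LNCaP with a negative control siRNA. Each siRNA was transfected with a lipid carrier at 75 nM, in medium that held serum but no phenol red, and RNA was taken after 48 h. Each group held 1 array, so no difference given here has a replicate error and no test between groups was possible. The cell line label is LNCaP for all 3 arrays, but the source label is LNCaP-Bic for siRNA 1, LNCaP-AI for siRNA 2 and LNCaP for the control, and a difference between cells of these names cannot be told apart from a difference between siRNAs.

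Polyamines are small positively charged molecules that bind nucleic acids and are needed for growth, and the secretory epithelium of the prostate makes and exports them in unusual amounts. ODC1 turns ornithine into putrescine, AMD1 makes the aminopropyl donor, and SRM and SMS use that donor to build spermidine and then spermine. SAT1 and SMOX take polyamines down again, antizymes of the OAZ genes bind ODC1 and send it to the proteasome, AZIN1 draws antizyme away from ODC1, and MTAP recycles the methylthioadenosine that both aminopropyl transfers release.

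The siRNAs are shown because the groups were named by them, although the source labels differ between the groups too. They are written as the labels give them, with the last 2 letters in capitals.
siRNA 1: gaaagaaggaccaaaguaaUU
siRNA 2: gcccuuucugaccugcuuaUU
control siRNA: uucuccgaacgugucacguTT

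Start-site windows of RefSeq (GRCh38.p14) were 300 bases each, with 250 before and 50 after an annotated start. No window of AZIN1 or SMOX was used, so whether either gene holds a motif was not tested. The windows used covered 8 of the 10 genes and numbered 11, because AMD1 has 3 and ODC1 has 2. They were searched on both strands for the E-box CACGTG, which MYC family factors can bind, and for the androgen receptor half-site TGTTCT. The motifs do not overlap each other in letters. The E-box was in 2 of the 11 windows, while 7.26% of all 35116 windows held it, and the half-site was in 0 of 11, against 14.8% of all windows. The 250 bases before the SRM start (chr1:11060019-11060268, minus strand) held an E-box beginning 199 bases before the start. The ODC1 window of the inner start held E-boxes beginning 29 bases before it and at base 6 after it, of which the first is shown with 30 bases (chr2:10448024-10448053, minus strand). The upstream region of an AMD1 start (chr6:110874535-110874784, plus strand) held none, nor did the windows of its other starts. These stretches are shown because SRM and ODC1 were the synthesis genes that read lower with both siRNAs and AMD1 the one that read higher. The windows of MTAP, which also read lower with both, and of SAT1 and OAZ2, which read higher, held no E-box. The stretches were picked by values in these same data, and a link between motif and direction was not tested. Capitals mark the E-box. A match is a description of the letters and not of binding.
SRM: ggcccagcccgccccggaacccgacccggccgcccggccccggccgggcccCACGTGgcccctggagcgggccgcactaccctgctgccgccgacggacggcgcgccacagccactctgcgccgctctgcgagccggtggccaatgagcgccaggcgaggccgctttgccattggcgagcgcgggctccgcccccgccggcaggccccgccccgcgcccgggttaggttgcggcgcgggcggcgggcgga
ODC1: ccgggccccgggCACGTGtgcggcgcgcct
AMD1: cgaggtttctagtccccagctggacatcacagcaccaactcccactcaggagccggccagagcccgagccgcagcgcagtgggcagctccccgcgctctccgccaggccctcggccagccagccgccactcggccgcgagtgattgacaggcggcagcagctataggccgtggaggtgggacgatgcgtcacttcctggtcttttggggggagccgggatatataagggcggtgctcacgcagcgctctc

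The deposited values are probe set intensities on a linear scale, and the 3 arrays had medians of 25.7 with siRNA 1, 26.1 with siRNA 2 and 26.1 in the control. Values below 26.0, the median over all probe sets and arrays, were raised to that floor, and a probe set was taken as measured if any array exceeded it. The targeted transcript was not checked, since 0 annotated probe sets carried HAGLR, under which RefSeq lists HOXD-AS1, or its synonyms, Entrez identifier or RefSeq transcripts, and the 2569 probe sets with no annotation used here could not be searched. An inhibition rate is labelled as 0.23 for siRNA 1, 0.25 for siRNA 2 and 1 for the control with no word on its measurement, and the labels place the siRNA targets at 588 and 1290 of the WDR5 coding sequence, although both siRNAs are named for HOXD-AS1. The WDR5 probe sets read 380.2 and 351 with siRNA 1 and 374 and 407 with siRNA 2, against 419.9 and 445 in the control. Of 9 prostate luminal markers 7 had a probe set and all 7 were measured. By the brightest probe set of each, ACP3, TMPRSS2, KRT8 and HOXB13 were higher and KLK2 and KLK3 lower with both siRNAs. List medians were 0.27 with siRNA 1 and 0.15 with siRNA 2, the latter the HOXB13 value. The 3 other HOXB13 probe sets were all lower with siRNA 2 (-0.46 to -0.20). TMPRSS2, KRT8 and KLK2 also had other probe sets that went the opposite way with 1 siRNA, while ACP3 and KLK3 kept their direction in every measured probe set. ACP3, for prostatic acid phosphatase, was the only luminal marker past 2-fold, at 445 with siRNA 1 and 664 with siRNA 2, against 190.5 in the control. The summed luminal intensity, to which KLK2 gave most, was 14311 with siRNA 1, 12141 with siRNA 2 and 13355 in the control. Of 9 markers of other cell types 8 had a probe set and 3 were measured, namely VIM, KRT14 and COL1A1. Their summed intensities were 676 with siRNA 1, 824 with siRNA 2 and 742 in the control. VIM gave most of each sum, at 593, 735 and 660 in the same order, and COL1A1 was near the floor (26.6 with siRNA 1). KRT5, CAV1, DCN, PTPRC and CHGA stayed below the floor. In RNA from whole cultures, fewer cells with a transcript and less of it per cell cannot be told apart.

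Of the 35 polyamine probe sets, 29 were measured and 27 were above the floor on all 3 arrays. The 6 below the floor on every array were 3 for SMOX and 1 each for SMS, SAT1 and MTAP. In log2 difference from the control, 0 of 29 reached 2-fold in either direction with siRNA 1, where 2.68% of all 23896 measured probe sets did, and 0 of 29 with siRNA 2, where 1.34% did. Between the siRNA arrays it was also 0 of 29, against 2.17% of all. The median log2 difference over the 29 was 0.02 with siRNA 1 and -0.03 with siRNA 2, against 0.00 over all measured probe sets in each comparison. Behind these medians the genes went different ways. In 3 genes, AMD1, SAT1 and OAZ2, every measured probe set was higher than the control with both siRNAs. In 3 genes, ODC1, SRM and MTAP, every measured probe set was lower with both, and ODC1 had only 1. The share of all genes with every measured probe set on 1 side was not counted. By the brightest probe set of each gene, 4 of the 10 genes were higher with both siRNAs, where 34.3% of all measured genes were. On the same count 3 were lower with both, where 32.1% of all were. Both counts by the brightest probe set lie near the shares over all genes. Counted by probe set, 12 were higher with both siRNAs, where 31.8% of all probe sets were, and 11 were lower with both, where 33.7% were. The siRNA comparisons share the control array, so a low or high control value moves both together. The only repeated measurement is that of several probe sets per gene on the same RNA, which can share target sequence. Over the 3286 genes with at least 3 measured probe sets, the SD of the log2 difference between the probe sets of a gene had a median of 0.15 with siRNA 1 and 0.15 with siRNA 2. Each SD of a log2 difference is over the probe sets of a gene and is not an error between cultures.

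**Figure D1:**
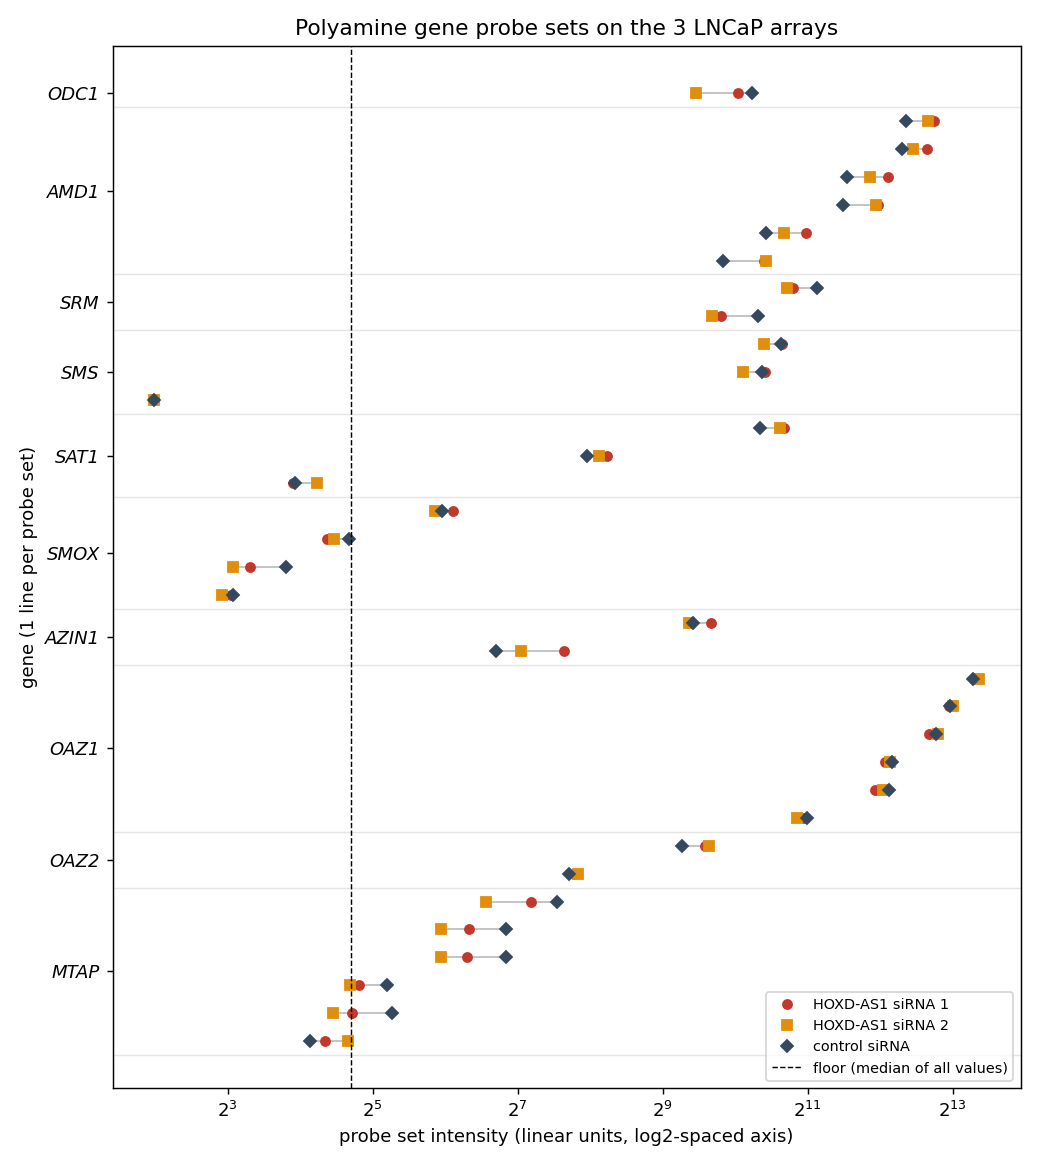
Intensity of each of the 35 polyamine probe sets (1 line each, grouped by gene) with HOXD-AS1 siRNA 1 (circles), HOXD-AS1 siRNA 2 (squares) and control siRNA (diamonds), on a log2-spaced axis with the floor as a dashed line. The control is the lowest point on all 6 AMD1 lines and the highest on the ODC1 line, both SRM lines and the 5 measured MTAP lines.

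The first enzyme of the pathway, ODC1, was lower with siRNA 2 than on either other array. Its only probe set read 1048 with siRNA 1 and 707 with siRNA 2, against 1208 in the control. The log2 difference from the control was -0.20 with siRNA 1, 1.15-fold lower, and -0.77 with siRNA 2, 1.71-fold lower. Among all measured probe sets 24.8% were as low or lower than ODC1 with siRNA 1 and 2.1% with siRNA 2. ODC1 has no second probe set here, so its values could not be set against a repeat on the same arrays.

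AMD1, the decarboxylase that makes the aminopropyl donor, was higher with both siRNAs in all 6 of its probe sets. The brightest of them, 11747877_x_at, read 6857 with siRNA 1 and 6492 with siRNA 2, against 5230.4 in the control. Probe set 11717237_s_at read 6390.3 with siRNA 1 and 5638 with siRNA 2, against 5063 in the control. The dimmest, 11758768_x_at, read 1353 with siRNA 1 and 1381 with siRNA 2, against 911 in the control. On these 3 probe sets, as on the other 3, both siRNA arrays lay above the control. The log2 difference averaged 0.48 ± 0.10 with siRNA 1 (SD over 6 probe sets, 0.34 to 0.57) and 0.35 ± 0.16 with siRNA 2 (0.16 to 0.60). The 3 probe sets not given above read between 2011 and 4408 with siRNA 1, between 1640.3 and 3940.4 with siRNA 2 and between 1380.5 and 2990.3 in the control. A further probe set, annotated to AMD1 and to its pseudogene AMD1P3, is not counted here because it has several symbols. Most AMD1 probe sets carry the suffix _s_at or _x_at, which marks probes that may match more than 1 transcript.

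SRM, which joins an aminopropyl group to putrescine to form spermidine, was lower with both siRNAs in both of its probe sets. Probe set 11720927_a_at read 1779 with siRNA 1 and 1684 with siRNA 2, against 2241 in the control. Probe set 11720928_at read 893 with siRNA 1 and 820.3 with siRNA 2, against 1271 in the control. The siRNA arrays lay close to each other and below the control in each. The log2 difference averaged -0.42 ± 0.12 with siRNA 1 and -0.52 ± 0.16 with siRNA 2 (SD over 2 probe sets). At the probe set with the larger difference siRNA 1 was 1.42-fold and siRNA 2 1.55-fold below the control.

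SMS, the spermine synthase gene on the X chromosome, did not follow SRM with siRNA 1. Its brighter probe set read 1601 with siRNA 1 and 1355 with siRNA 2, against 1587 in the control, and the other read 1359 with siRNA 1 and 1105 with siRNA 2, against 1325 in the control. The siRNA 1 array therefore lay within 1.03-fold of the control in both, and the siRNA 2 array was the lowest in both. The mean log2 difference was 0.02 ± 0.02 with siRNA 1 and -0.25 ± 0.02 with siRNA 2 (SD over 2 probe sets). The remaining SMS probe set read 3.96 on all 3 arrays, below the floor.

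SAT1, the acetyltransferase that marks spermidine and spermine for export or oxidation, was moderately higher with both siRNAs. Probe set 11743036_s_at read 1635 with siRNA 1 and 1572 with siRNA 2, against 1303 in the control. Probe set 11763704_a_at read 300.3 with siRNA 1 and 278 with siRNA 2, against 249 in the control. Both siRNA arrays were above the control in each, and siRNA 1 was the highest. The mean log2 difference was 0.30 ± 0.04 with siRNA 1 and 0.22 ± 0.08 with siRNA 2 (SD over 2 probe sets), and the remaining SAT1 probe set was below the floor, at 14.9 with siRNA 1, 18.8 with siRNA 2 and 15.2 in the control.

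SMOX, the oxidase that turns spermine back into spermidine, gave a low signal and no shared direction. Its only measured probe set read 69.2 with siRNA 1 and 58.2 with siRNA 2, against 62.2 in the control, log2 differences of 0.15 with siRNA 1 and -0.10 with siRNA 2. The brightest of its 3 other probe sets read 20.7 with siRNA 1, 22.0 with siRNA 2 and 25.6 in the control, so no difference could be read from them at this floor.

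Among the regulators of ODC1 protein, AZIN1 held the largest single difference with siRNA 1, but its probe sets disagreed. Probe set 11725106_s_at read 199 with siRNA 1 and 133 with siRNA 2, against 104 in the control, so that siRNA 1 was 1.91-fold and siRNA 2 1.27-fold higher. Probe set 11739093_a_at, the brighter, read 814 with siRNA 1 and 657 with siRNA 2, against 684 in the control, log2 differences of 0.25 with siRNA 1 and -0.06 with siRNA 2. Both probe sets had siRNA 1 as the highest array, while the place of siRNA 2 relative to the control turned between them. The mean log2 difference was 0.59 ± 0.48 with siRNA 1 and 0.15 ± 0.29 with siRNA 2 (SD over 2 probe sets), so with siRNA 2 the spread between probe sets exceeded the mean.

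OAZ1, the gene of the main antizyme, was nearly level on all arrays. Its brightest probe set read 10102 with siRNA 1 and 10572 with siRNA 2, against 9966 in the control. The 6 OAZ1 probe sets had log2 differences between -0.18 and 0.02 with siRNA 1 and between -0.13 and 0.09 with siRNA 2, with means of -0.07 ± 0.07 for siRNA 1 and -0.01 ± 0.08 for siRNA 2 (SD over 6 probe sets). OAZ2, the second antizyme gene, was higher with both siRNAs to an extent that differed between its probe sets. Probe set 11715727_s_at read 771 with siRNA 1 and 801 with siRNA 2, against 619 in the control, 1.24-fold and 1.29-fold higher. Probe set 11715726_a_at read 219 with siRNA 1 and 228 with siRNA 2, against 209.5 in the control, 1.05-fold and 1.09-fold higher. The mean log2 difference of OAZ2 was 0.19 ± 0.18 with siRNA 1 and 0.24 ± 0.18 with siRNA 2 (SD over 2 probe sets), which is about the size of the spread between them.

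MTAP, the phosphorylase that returns methylthioadenosine to the methionine and adenine pools, was lower with both siRNAs in all 5 measured probe sets and held the largest difference of the 10 genes with siRNA 2. Probe set 11726116_at read 146 with siRNA 1 and 94.2 with siRNA 2, against 186 in the control, 1.27-fold and 1.97-fold lower. Probe set 11748840_a_at read 80.5 with siRNA 1 and 61.8 with siRNA 2, against 115 in the control. Probe set 11726117_a_at gave nearly the same values, 78.8 with siRNA 1 and 61.6 with siRNA 2, against 114 in the control. With siRNA 2 both were 1.85-fold lower, the same difference, so these 2 may not be separate measurements. Whether they share target sequence was not tested. In these 3 probe sets the order was the same, with siRNA 2 lowest and the control highest. The 2 dimmer ones, 11726115_at and 11751853_s_at, read 28.1 and 26.2 with siRNA 1, 25.8 and 22.0 with siRNA 2, and 36.8 and 38.4 in the control. Both were at the floor with siRNA 2, which makes them at least 1.42-fold and at least 1.48-fold lower there. The log2 difference averaged -0.47 ± 0.09 with siRNA 1 and, with those bounds included, -0.77 ± 0.22 with siRNA 2 (SD over 5 probe sets). Of all measured probe sets 14.3% were as low or lower than 11726116_at with siRNA 1 and 0.711% with siRNA 2. The remaining MTAP probe set was below the floor and read 20.4 with siRNA 1, 25.3 with siRNA 2 and 17.6 in the control.

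**Figure D2:**
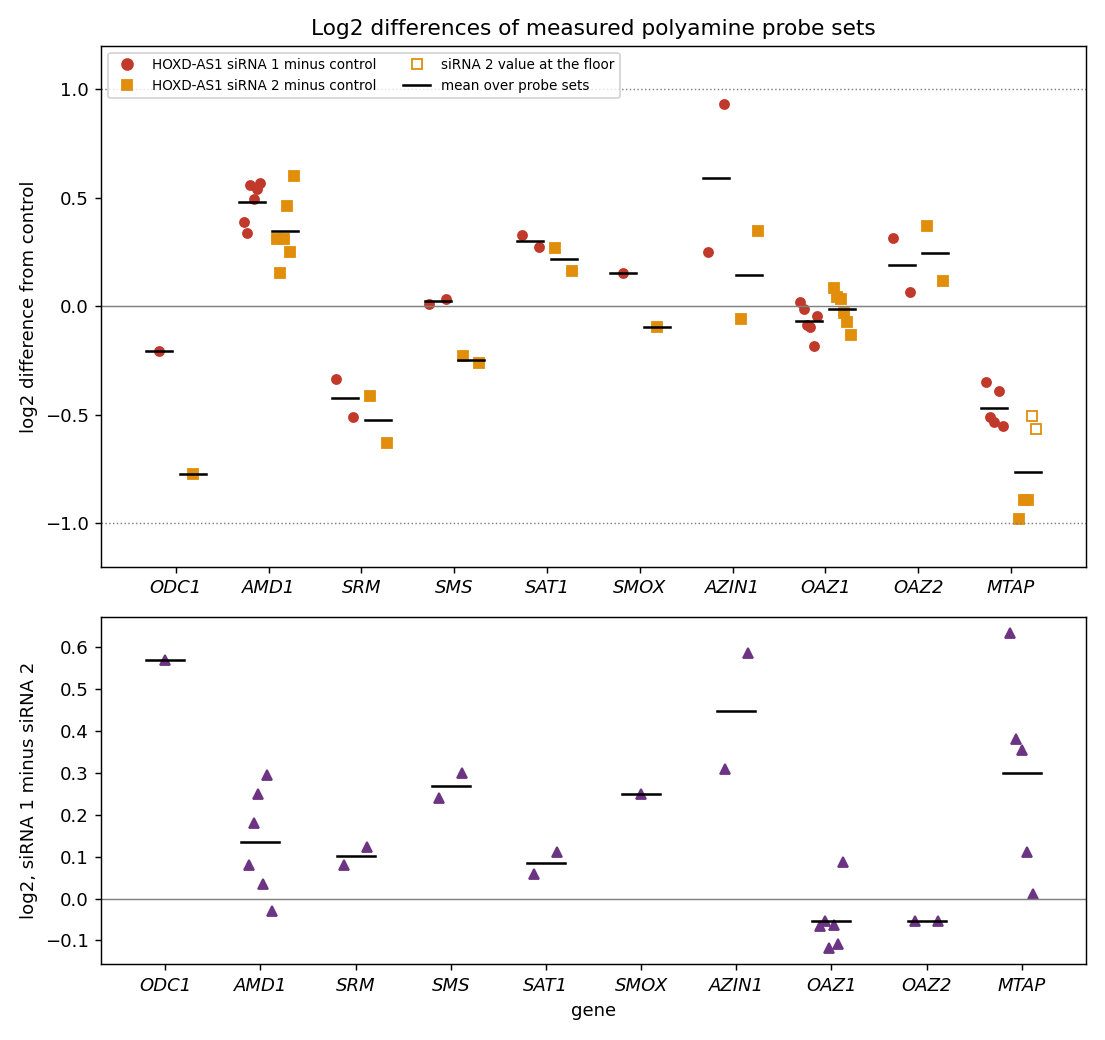
Log2 difference from the control of each measured probe set, by gene, with siRNA 1 (circles) and siRNA 2 (squares, open where the siRNA 2 value is at the floor) in the upper panel, and siRNA 1 minus siRNA 2 (triangles) in the lower panel. Black bars are means over probe sets, dotted lines mark 2-fold, and the 2 lowest MTAP triangles are lower bounds. No point crosses a dotted line, AMD1 lies above 0 and SRM and MTAP below 0 throughout the upper panel, and ODC1 stands at 0.57 in the lower one.

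At a lower threshold of 1.5-fold, few probe sets were called with siRNA 1 and more with siRNA 2, on the lower side. With siRNA 1, 1 of the 29 measured probe sets was at least 1.5-fold higher (the AZIN1 probe set 11725106_s_at), where 6.57% of all probe sets were, and 0 were at least 1.5-fold lower, where 5.65% were. With siRNA 2, 1 was at least 1.5-fold higher (the AMD1 probe set 11758768_x_at), where 3.98% of all were, and 5 of 29, or 17.2%, were at least 1.5-fold lower, where 5.22% of all were. Those 5 were the ODC1 probe set, the SRM probe set 11720928_at and 3 MTAP probe sets, and they stand for 3 genes. The MTAP probe sets 11748840_a_at and 11726117_a_at had the same difference, so the 5 may not all be separate measurements.

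Set against each other without the control, the siRNA arrays differed most in ODC1, MTAP and AZIN1, all higher with siRNA 1. The log2 difference of siRNA 1 minus siRNA 2 was 0.57 for ODC1, 0.63 for the MTAP probe set 11726116_at and 0.59 for the AZIN1 probe set 11725106_s_at. The other AZIN1 probe set was 0.31, and 2 further MTAP probe sets were 0.36 and 0.38. The 2 MTAP probe sets at the floor with siRNA 2 have only lower bounds here, of 0.01 and 0.11. Of the 29 probe sets 21 were higher with siRNA 1 than with siRNA 2, where 48.8% of all measured probe sets were, and the median was 0.11 against 0.00 over all. OAZ2 was slightly lower with siRNA 1 in both probe sets, by a mean log2 difference of -0.05, and OAZ1 in 5 of 6. At 1.5-fold 2 of 29 were called higher with siRNA 1, where 7.07% of all were, and 0 were called lower, where 4.02% of all were. For AMD1, SRM and SAT1 the siRNA arrays lay within a mean log2 of 0.13, 0.10 and 0.08 of each other.

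The pattern most like that of MTAP, the gene with the largest mean absolute difference by its brightest probe set, was sought over the 3 arrays among 11285 other measured genes. Likeness was the Euclidean distance between log2 intensities centred on their mean. The nearest were BMP7 at 0.032, MAK16 at 0.046 and LOXL1 at 0.058. BMP7 read 104 with siRNA 1 and 67.1 with siRNA 2, against 129 in the control. Within a distance of 0.2 there were 60 genes, so this likeness is shared by many genes when only 3 arrays are compared.

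Genes around the pathway were counted by the brightest probe set of each, on the same log2 difference scale. None of the 5 lists had a gene 2-fold from the control, where 3.12% of all 11286 measured genes were 2-fold from it with siRNA 1 and 1.39% with siRNA 2. Of 7 other polyamine enzymes and regulators, 1 was higher with both siRNAs, where 34.3% of all genes were, and 2 were lower with both, where 32.1% were. The medians of this list were -0.13 with siRNA 1 and 0.00 with siRNA 2, against 0.00 and 0.01 over all measured genes. PMF1, which encodes a kinetochore protein also named for its response to polyamines, had the largest mean difference of these, -0.47 with siRNA 1 and -0.35 with siRNA 2.

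Arginine and ornithine supply had 6 of 10 genes measured, with medians of 0.14 with siRNA 1 and 0.19 with siRNA 2. By the brightest probe set 4 were higher with both siRNAs, where 34.3% of all genes were, and 1 was lower with both, where 32.1% were. Of the 4, ARG2 and ALDH18A1 each had another probe set that was lower with siRNA 2 (-0.13 and -0.16). OAT was level with siRNA 1 (0.00). SLC25A15, the mitochondrial ornithine carrier gene, was the lowest, with an intensity of 214 with siRNA 1 and 263 with siRNA 2, against 349 in the control, and its 2 other probe sets were lower too (-0.63 to -0.51 over both siRNAs). ASS1, which encodes argininosuccinate synthase, read 1101 with siRNA 1 and 819 with siRNA 2, against 728 in the control. ARG1, the liver-type arginase gene, was below the floor on all arrays.

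The factor EIF5A, whose lysine receives an aminobutyl group from spermidine to form hypusine, was lower with both siRNAs. It read 2195 with siRNA 1 and 1712 with siRNA 2, against 2606 in the control, log2 differences of -0.25 with siRNA 1 and -0.61 with siRNA 2. Its 4 other probe sets were lower as well, between -0.29 and -0.24 with siRNA 1 and between -0.65 and -0.40 with siRNA 2. Of this list of 4 genes 3 were measured, with medians of -0.23 with siRNA 1 and -0.13 with siRNA 2. With both siRNAs 0 were higher, where 34.3% of all genes were, and 2 were lower, where 32.1% were. The hypusine-forming enzymes DHPS and DOHH differed by -0.20 and -0.23 with siRNA 1 and by 0.14 and -0.13 with siRNA 2. The order of the arrays for EIF5A, siRNA 2 lowest and control highest, was also that of ODC1, SRM and MTAP. The luminal markers KLK2 and KLK3 had this order too at their brightest probe sets. The share of all genes with this order was not counted.

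In the methionine cycle and salvage all 11 genes were measured, with medians of 0.07 with siRNA 1 and -0.24 with siRNA 2. With both siRNAs 1 was higher, where 34.3% of all genes were, and 3 were lower, where 32.1% were. MTR, the methionine synthase gene, differed by -0.60 with siRNA 1 and -0.56 with siRNA 2. MTRR, whose product reactivates methionine synthase, read 360 with siRNA 1 and 198 with siRNA 2, against 318 in the control, which put siRNA 1 above the control (0.18) and siRNA 2 below it (-0.69). Of 9 transport genes 7 were measured, with medians of -0.06 with siRNA 1 and -0.17 with siRNA 2. With both siRNAs 0 were higher, where 34.3% of all genes were, and 4 were lower, where 32.1% were. SLC7A1, which imports arginine and ornithine, differed by -0.70 with siRNA 1 and -0.34 with siRNA 2. Both further SLC7A1 probe sets were lower too, between -0.57 and -0.36 with siRNA 1 and between -0.30 and -0.27 with siRNA 2.

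All 9 proliferation markers were lower with both siRNAs, where 32.1% of all measured genes were. Their median log2 difference was -1.30 with siRNA 1 and -0.51 with siRNA 2. With siRNA 2 the brightest probe sets of MTAP (-0.98) and ODC1 (-0.77) differed by more than the brightest one of every marker but RRM2. ODC1 was barely past CCNB1 there, and another probe set of MKI67 reached -0.945. A 2-fold lower value was read for 8 of them with siRNA 1, where 1.76% of all measured genes had one, and for 1 with siRNA 2, where 0.603% had one. Their summed intensity was 5077 with siRNA 1 and 8595 with siRNA 2, against 11505 in the control. With siRNA 1 the log2 difference was -1.52 for the mitotic cyclin gene CCNB1 and -1.26 for RRM2, a ribonucleotide reductase subunit gene. With siRNA 2 it was -0.76 for CCNB1 and -1.03 for RRM2. AURKA and TK1 were the others among the 4 markers with the largest mean difference. The markers were lowest with siRNA 1, whereas ODC1 and MTAP were lowest with siRNA 2. For SRM the siRNA arrays differed by a log2 of only 0.08 and 0.12 in its probe sets. That is less than the median SD between probe sets of a gene for this comparison (0.14), which is not an error between cultures. In both SRM probe sets siRNA 2 was the lower of the siRNA arrays. The part of proliferation in the polyamine gene values was not tested.

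**Figure D3:**
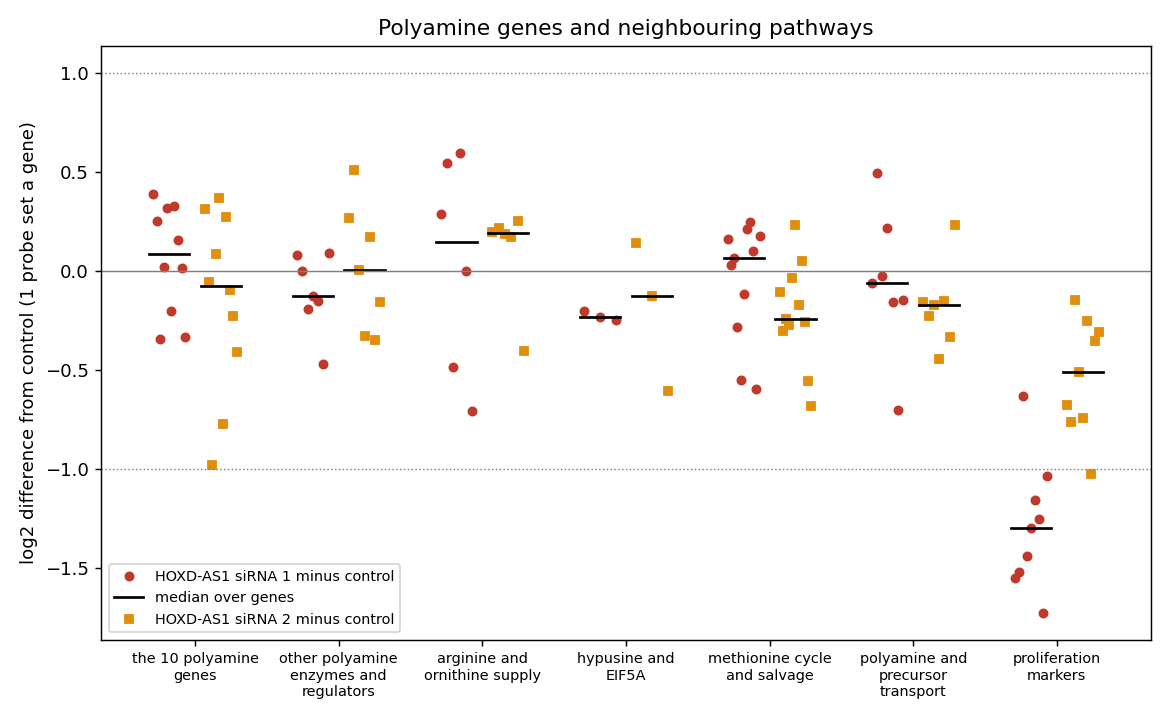
Log2 difference from the control of each measured gene, by its brightest probe set, for the 10 polyamine genes, 5 neighbouring pathway lists and proliferation markers, with siRNA 1 (circles, left) and siRNA 2 (squares, right). Black bars are medians over genes, which lie between -0.24 and 0.19 for the polyamine genes and the neighbouring lists and at -1.30 and -0.51 for the proliferation markers.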

How the data were processed

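The deposited table holds 1 intensity per probe set and array on a linear scale. GCOS 1.4 is the software named, per the submitters' processing notes; how background, summarisation and normalization were done is not given in the sources used here. Sorted log2 values of any 2 arrays differed by at most 0.098, so no further scaling was applied. Intensities below the median of all values (26.0) were raised to it before log2. Gene names came from the platform annotation, and the symbols of the 10 genes matched RefSeq by Entrez identifier. Of all probe sets 44988 had 1 symbol, 1831 several and 2569 none listed, and those without 1 symbol were not used. For lists, a gene was taken by its probe set of highest mean log2 intensity. Groups followed the titles. With 1 array per group there was no test, only values, differences, counts past 2-fold or 1.5-fold and medians, beside the same over all measured probe sets or genes. The number of arrays limits the precision. From the lists around the pathway, the genes named had a log2 difference of 0.58 or more (about 1.5-fold) with either siRNA, at most 4 a list, or else the largest mean difference; other genes named were chosen after their values were seen. The polyamine genes and the lists were chosen with earlier results of these data known. Counting was tested on simulated data. Python 3.11.15, pandas 2.3.3 and numpy 2.4.6 were used.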

Additional observations from a re-analysis of the deposited data

Results flagged for a closer look

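A probe set annotated to both AMD1 and the pseudogene AMD1P3, left out of the counts above because it has 2 symbols, read above the control with both siRNAs. Its intensity was 2167 with siRNA 1 and 1983 with siRNA 2, against 1491 in the control, log2 differences of 0.54 with siRNA 1 and 0.41 with siRNA 2, both within the range of the 6 AMD1 probe sets.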

How the results depend on the processing

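Restricting to plain probe sets, which left 3 of the 29 (1 of SRM and 2 of MTAP), gave medians of -0.39 with siRNA 1 and -0.63 with siRNA 2. Both the genes kept and the probe set kept within SRM differ there: SRM became -0.51 with siRNA 1 and -0.63 with siRNA 2, against -0.33 and -0.41 for its brightest probe set. At a 1.5-fold threshold the count of 0 higher became 1 with siRNA 1 and 1 with siRNA 2, the count of 0 lower became 5 with siRNA 2, and 2 were higher with siRNA 1 than with siRNA 2. Other floors, no floor, a pseudocount of 16, quantile normalization, median centring, and 1 value per gene moved no median by more than the typical SD between probe sets (0.15, or 0.14 between the siRNAs), and left all counts past 2-fold at 0. So did adding the AMD1 and AMD1P3 probe set, an alternative chosen after seeing the data. By gene, 265 of 273 recomputed differences moved by less than the typical SD between probe sets and 8 by more. A change of sign was seen in 4, 3 of OAZ1 and 1 of AZIN1 with siRNA 2. Many of the 265 could not move. Taking the brightest probe set repeats the main choice, and the probe set with 2 symbols did not enter the gene values. A lower floor or none changed nothing, because the brightest probe set of each gene was above the floor on all 3 arrays. With the floor at the 75th percentile MTAP differed by -0.62 with siRNA 2, and as a mean of probe sets by -0.77, against -0.98 for its brightest. No paired analysis was possible because each group holds 1 array and no test was run.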
